A study of Schizosaccharomyces pombe with 6 samples.

Results

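The genes encoding the protein subunits of the fission yeast mitochondrial ribosome were examined in the nup211-so strain. Genes were taken as members when they were annotated as protein coding and their name began with mrpl, mrps or rsm followed by a digit. This rule found 45 of the 6291 counted genes. Of these, 44 are annotated as mitochondrial ribosomal proteins, 29 of the large subunit (the mrpl genes) and 15 of the small subunit (the mrps and rsm genes). The remaining gene, rsm1, is annotated as a zinc finger C3HC-type RNA export factor and shares only the letters of the name. It is therefore described separately, and the 44 annotated genes are called the mitoribosomal protein genes. A further 3 non-coding genes whose names also match were left out.

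The libraries came from Schizosaccharomyces pombe cells in which the thiamine-repressible P81nmt1 promoter and the ura4+ marker stand before nup211, the gene of a nuclear basket protein. All libraries share the background leu1-32 ura4-D18 ade6-M210 h+ and grew in Edinburgh minimal medium with adenine and leucine. The 3 thiamine cultures received 30 μM (10 μg/mL) thiamine, grew for 24 h, were diluted into fresh medium with thiamine and grew for another 24 h. The other 3 cultures received no thiamine. No library of a wild-type strain given thiamine was used here, so the effect of thiamine itself and that of the repressed promoter cannot be told apart. In these bulk libraries, less transcript per cell and fewer cells holding a transcript cannot be told apart either.

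Mitochondria carry their own ribosome, which makes the few hydrophobic respiratory chain and ATP synthase subunits encoded by mitochondrial DNA. Nearly all of its proteins are encoded in the nucleus, made in the cytosol and imported, then assembled with ribosomal RNA made inside the organelle. The large subunit holds the peptidyl transferase centre and the exit tunnel, and the small subunit holds the decoding centre. Some of these proteins descend from bacterial ribosomal proteins, and others were added in the mitochondrial lineage. Fission yeast depends on mitochondrial DNA for growth, so its mitochondrial ribosome is needed even when sugar is plentiful.

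The thiamine libraries held 37195197 to 48815139 counts and the libraries without thiamine 43629667 to 47036833, with ribosomal RNA genes taking 24.6% to 46.3% of the counts with thiamine and 42.7%, 41.2% and 49.0% without. nmt1, the endogenous thiamine-repressed gene, had 0, 3 and 2 counts in the thiamine libraries, against 1631, 2061 and 1858 counts without thiamine. The nup211 transcript itself had 644, 551 and 655 counts with thiamine, against 477, 590 and 473 without, and its level did not pass the test (log2 fold change -0.17 ± 0.11 (SE), Benjamini-Hochberg adjusted p = 0.199 in the quasi-likelihood test of edgeR, n = 3 each). The comparison is therefore described as thiamine against no thiamine, by the labels, and not as a loss of nup211 RNA.

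All 44 mitoribosomal protein genes passed the filter on low counts, and 22 of them were lower with thiamine. Levels are CPM (counts scaled to a common library size of 1000000) after TMM scaling, which assumes that most genes keep their level. At an adjusted p under 0.05, these 22 fell, 5 rose (11.4%) and 17 were not called. Among all 5434 genes tested, 35.3% were lower and 34.5% higher, 69.8% in all. The 44 genes had a median log2 fold change of -0.37 (interquartile range -0.57 to -0.09), beside a median of -0.01 over all tested genes, and 35 of the 44 values were negative. Fold changes spread less among these genes (SD 0.49 on the log2 scale) than over all tested genes (SD 1.17). A stricter threshold, an unadjusted edgeR p under 1e-06 with at least a 2-fold change, was passed by 1 gene, mrpl7, which was lower. By it, 3.07% of all tested genes were lower and 6.7% higher, 9.77% in all.

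Summed over the rule's genes, the level was 1202, 1221 and 1068 CPM in the thiamine libraries, against 1389, 1440 and 1401 CPM without thiamine. The thiamine sums all lay below the others, with the third thiamine library the lowest. Single genes did so less uniformly: 26 of the 44 were lower in every thiamine library than in every library without thiamine, and 6 were higher in every one, where 38.2% and 37.3% of all tested genes did so (75.5% in all). The direction of the list depended on the scaling, since its median was 0.21 when the libraries were scaled by their totals (12 genes higher, 5 lower), -0.05 with ribosomal RNA genes left out of the totals (10 higher, 8 lower) and -0.67 with upper quartiles (1 higher, 32 lower). Library totals gave 50.1% of all tested genes as higher and 10.8% as lower, totals without ribosomal RNA genes 46.6% and 22.0%, and upper quartiles 25.2% and 47.5%. The median of all tested genes moved along, to 0.57, 0.31 and -0.31 for these scalings. Relative to that median the 44 genes stood at -0.36 under TMM. Removing trends with transcript length and GC content brought this to -0.18 (8 higher, 17 lower). In that fit 34.0% of all tested genes were higher and 33.6% lower. Transcripts of the 44 genes were shorter than most, with a median of 1086 bases against 1760 over all tested genes.

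**Figure D1:**
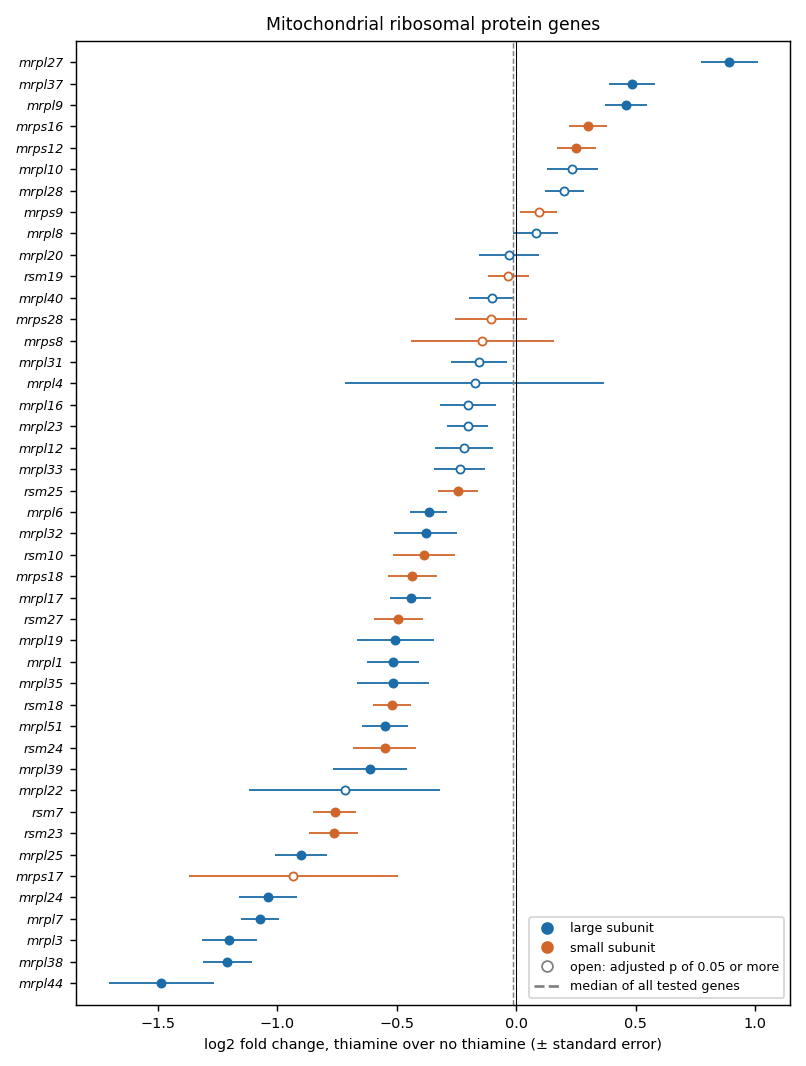
Log2 fold change (thiamine over no thiamine, TMM scaling, horizontal axis) of the 44 mitoribosomal protein genes, 1 gene a line, with the standard error as a bar, blue for the large and orange for the small subunit, and open circles for genes not called. The 22 genes that fell range to -1.49 (mrpl44) and the 5 that rose to 0.89 (mrpl27), and under library totals the median of the list turns positive.

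6 genes were called in the same direction under every scaling, filter, model and left-out library tried, 5 lower and 1 higher. How many of all tested genes kept their call in this way was not counted, so 6 of 44 has no background. The 5 were mrpl44, mrpl38, mrpl3, mrpl7 and mrpl24, all genes of the large subunit. mrpl38 (SPBC887.07), annotated as subunit L14, a protein that in bacteria lies at the interface with the small subunit, had 32.9, 34.2 and 26.9 CPM with thiamine, against 73.5, 72.7 and 71.0 CPM without. The groups lay far apart, and the level was 2.31-fold lower with thiamine (log2 fold change -1.21 ± 0.10 (SE), adjusted p = 1.2e-05, edgeR's quasi-likelihood test). It was also the most abundant of the 44 without thiamine when set per length, at 60.4 CPM per kb of transcript with thiamine and 139 CPM per kb without.

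mrpl3 (SPBC3B9.14c), subunit L44, which belongs to a family related to ribonuclease III, had 30.1, 31.1 and 23.4 CPM with thiamine, against 61.6, 66.0 and 67.0 CPM without. That is a 2.30-fold lower level (log2 fold change -1.20 ± 0.12, edgeR adjusted p = 2.6e-05). mrpl7 (SPBC2F12.02c), subunit L5, whose bacterial relative binds 5S ribosomal RNA, had 18.8, 17.4 and 17.0 CPM with thiamine, against 37.6, 36.2 and 38.4 CPM without. The groups did not overlap (log2 fold change -1.07 ± 0.08, edgeR adjusted p = 6.4e-06). About 35.6% of the mrpl7 length is shared with other counted genes, byr2 and a non-coding RNA, neither of which was called.

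mrpl24 (SPBC14C8.10), subunit L28, had 17.9, 18.9 and 13.7 CPM with thiamine, against 35.4, 34.2 and 34.0 CPM without. Its log2 fold change was -1.04 ± 0.12 (edgeR adjusted p = 8.3e-05). The annotated transcript is 4929 bases long and 61.9% of it is shared with dbl3, SPBC14C8.11c and tam10. These averaged 0.01, 0.52 and 0.21 CPM with thiamine, and 0.03, 0.55 and 0.35 CPM without. How reads of shared stretches were counted is not given, so the mrpl24 count may hold reads of those genes or lack some of its own. mrpl44 (SPBC56F2.14), subunit L53, a mitochondria-specific protein, was less abundant, with 4.05, 3.497 and 2.28 CPM with thiamine, against 10.3, 9.62 and 7.52 CPM without. It had the lowest log2 fold change of the 44 genes (-1.49 ± 0.22, 2.80-fold lower, edgeR adjusted p = 3.3e-04). It lies below the level set for naming genes and was chosen after its values were seen.

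The gene that rose under every setting was mrpl27 (SPAC3A12.19), subunit L41, another mitochondria-specific protein of the large subunit. It had 18.3, 15.9 and 20.97 CPM with thiamine, against 9.56, 9.75 and 10.4 CPM without. Each thiamine library exceeded each of the others, and the level was 1.85-fold higher (log2 fold change 0.89 ± 0.12, edgeR adjusted p = 1.9e-04). 16.0% of its length is shared with the gene SPAC3A12.06c on the same strand, which was also higher (log2 fold change 1.46, edgeR adjusted p = 5.1e-06). Whether reads of that gene enter the mrpl27 count was not tested.

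**Figure D2:**
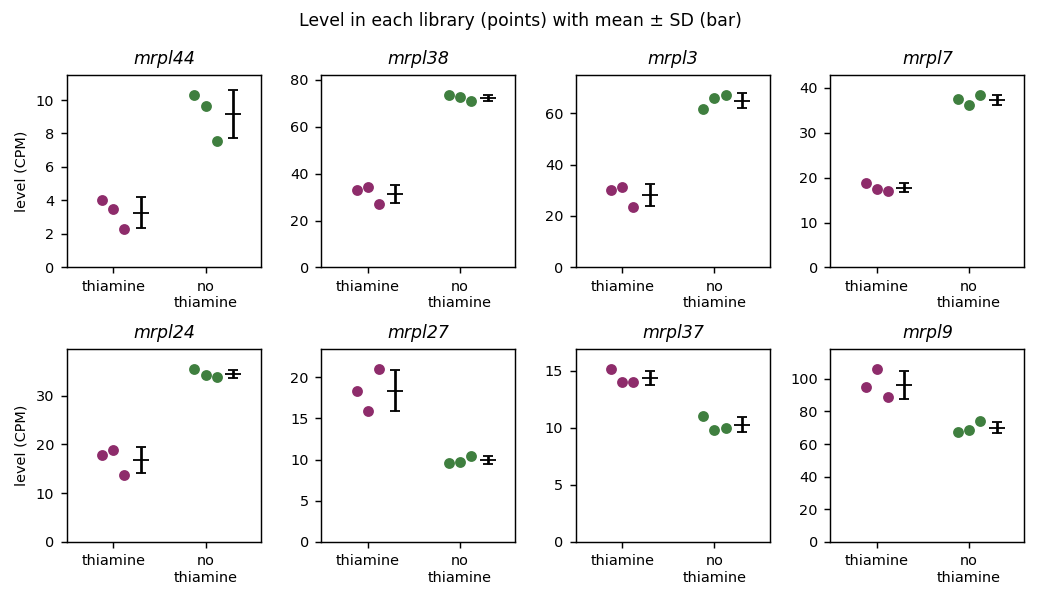
Level (CPM, vertical axes from 0) of 8 mitoribosomal protein genes in the 3 thiamine libraries (purple, left) and the 3 libraries without thiamine (green, right), with the mean and SD as a bar beside the points. mrpl44, mrpl38, mrpl3, mrpl7 and mrpl24 are lower in every thiamine library and mrpl27, mrpl37 and mrpl9 higher, and under library totals, totals without ribosomal RNA genes and upper quartiles the first 6 keep their call.

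The stretches just before the start of these genes are shown because they are the part of each promoter nearest the transcript of the genes whose call held throughout. They were read from the ASM294v3 genome (RefSeq), 5′ to 3′ on the strand of the gene, ending at the outermost of the deposited and the RefSeq start. The 2 annotations share one coordinate system, as 1426 of 6233 genes have the same start and end in both. The positions are chrII:4125780-4125817 (+) for mrpl44, chrII:3551117-3551266 (+) for mrpl38, chrII:4010872-4011021 (-) for mrpl3, chrII:1738418-1738567 (+) for mrpl7 and chrI:1433416-1433565 (-) for mrpl27. Each is 150 bases long except that of mrpl44, whose 38 bases end at the neighbouring gene pof12. mrpl24 is not shown because its starts in the annotations lie far apart. Capitals mark AATTTTT or TATAAA on either strand.
mrpl44: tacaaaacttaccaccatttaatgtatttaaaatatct
mrpl38: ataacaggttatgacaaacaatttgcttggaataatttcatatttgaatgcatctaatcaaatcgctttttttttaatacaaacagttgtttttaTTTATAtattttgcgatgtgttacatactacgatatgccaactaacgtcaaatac
mrpl3: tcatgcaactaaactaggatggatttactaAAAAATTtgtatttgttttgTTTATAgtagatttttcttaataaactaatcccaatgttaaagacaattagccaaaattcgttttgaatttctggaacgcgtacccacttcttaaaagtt
mrpl7: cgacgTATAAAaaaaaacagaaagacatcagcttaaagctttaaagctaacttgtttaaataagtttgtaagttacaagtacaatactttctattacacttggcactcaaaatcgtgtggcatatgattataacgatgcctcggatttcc
mrpl27: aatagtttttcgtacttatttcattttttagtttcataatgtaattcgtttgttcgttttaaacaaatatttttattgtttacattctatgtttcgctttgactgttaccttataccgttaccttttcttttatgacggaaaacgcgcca

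The stretch of mrpl38 holds TATAAA on the reverse strand, that of mrpl3 holds both motifs on the reverse strand, that of mrpl7 holds TATAAA, and those of mrpl44 (only 38 bases) and mrpl27 hold neither. Motifs were then counted in the 250 bases before and 50 bases after the RefSeq start, on either strand, in 5112 promoters. In this wider window mrpl44 holds 1 AATTTTT and 1 TATAAA, and mrpl27 holds neither. HomolD (CAGTCACA), an element known from promoters of cytosolic ribosomal protein genes of fission yeast, was in 0 of the 44 mitoribosomal promoters, in 88 of 141 promoters of cytosolic ribosomal protein genes (62.4%) and in 2.68% of all promoters. AATTTTT, which is known upstream of mitochondrial ribosomal protein genes in other yeasts, was in 18 of 44 (40.9%) and in 35.4% of all promoters. It was in 11 of the 22 genes that fell, 2 of the 5 that rose and 5 of the 17 not called. TATAAA was in 20 of 44 (45.5%) and in 48.1% of all promoters.

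Among the other genes of the large subunit, mrpl37 (subunit L54, mitochondria-specific) was higher, with 15.1, 14.0 and 14.0 CPM with thiamine, against 11.1, 9.78 and 10.0 CPM without (log2 fold change 0.48 ± 0.10, edgeR adjusted p = 0.0020). mrpl9 (subunit L3, whose bacterial relative helps to start the assembly of the large subunit) had 94.8, 106 and 88.9 CPM with thiamine, against 67.4, 68.9 and 74.1 CPM without (log2 fold change 0.46 ± 0.09, edgeR adjusted p = 0.0015). It had the largest count of the 44 genes in every thiamine library, and 58.5% of its length is shared with rna15 on the other strand. The groups of both genes did not overlap, and neither call held under upper quartiles. mrpl25 (subunit L59) had 17.8, 16.8 and 14.0 CPM with thiamine, against 32.4, 29.7 and 28.6 CPM without (log2 fold change -0.90 ± 0.11, edgeR adjusted p = 1.0e-04). Its level was 1.87-fold lower, and under library totals it kept its sign but not its call. mrpl39 (subunit L33) had 6.94, 7.87 and 5.60 CPM with thiamine, against 10.9, 11.4 and 8.88 CPM without (log2 fold change -0.61 ± 0.16, edgeR adjusted p = 0.0071), but was not called under library totals (-0.05) or totals without ribosomal RNA genes (-0.29). In all, 14 of the 29 genes of the large subunit fell (48.3%, beside 35.3% of all tested genes), 3 rose and 12 were not called. The median log2 fold change of the 29 was -0.37 (-0.36 relative to all tested genes). Under library totals 5 of the 29 fell and 8 rose, where 10.8% of all tested genes fell and 50.1% rose.

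Of the proteins related to the bacterial L7/L12 stalk and its base, mrpl19 (subunit L11) was lower and mrpl12 (subunit L12) was not called. mrpl19 had 32.5, 33.3 and 20.9 CPM with thiamine, against 42.4, 40.5 and 40.0 CPM without, and passed narrowly (log2 fold change -0.51 ± 0.16, edgeR adjusted p = 0.021). Its call was lost when any 1 of the 3 libraries without thiamine was left out (edgeR adjusted p between 0.051 and 0.071), and with length and GC trends removed the value was -0.15 (edgeR adjusted p = 0.364). mrpl12 had 58.6, 58.0 and 43.1 CPM with thiamine, against 59.6, 64.3 and 61.9 CPM without (edgeR adjusted p = 0.134). The third thiamine library gave the lowest value of both genes. mrpl1 (subunit L1, the protein of the opposite stalk) was lower as well, with 27.3, 26.8 and 21.1 CPM with thiamine, against 35.1, 36.8 and 35.5 CPM without (log2 fold change -0.51 ± 0.11, edgeR adjusted p = 0.0026, and 0.05 with no call under library totals).

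In the small subunit, the largest fall was that of rsm23, annotated as subunit S29, which in mammals is the GTP-binding protein DAP3. rsm23 had 56.6, 54.5 and 44.2 CPM with thiamine, against 86.3, 90.6 and 86.8 CPM without (1.70-fold lower, log2 fold change -0.76 ± 0.10, edgeR adjusted p = 1.8e-04). rsm7 (subunit S7, whose bacterial relative binds the small ribosomal RNA early in assembly) had 19.7, 19.96 and 17.3 CPM with thiamine, against 32.0, 33.5 and 30.8 CPM without (log2 fold change -0.76 ± 0.09, edgeR adjusted p = 8.6e-05). Both genes kept a negative sign under every scaling, and neither was called under library totals.

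2 genes of the small subunit rose. mrps16 (subunit S16) had 64.6, 73.8 and 68.8 CPM with thiamine, against 53.7, 56.4 and 58.2 CPM without (log2 fold change 0.30 ± 0.08, edgeR adjusted p = 0.0087, and 0.01 with no call under upper quartiles). mrps12 (subunit S12, a protein of the decoding centre) had 42.2, 44.4 and 38.2 CPM with thiamine, against 34.4, 34.7 and 35.8 CPM without. Its groups did not overlap (log2 fold change 0.25 ± 0.08, edgeR adjusted p = 0.023), but the call was lost when any 1 of 5 libraries was left out (edgeR adjusted p between 0.053 and 0.096) and the value was -0.04 under upper quartiles. Over the small subunit, 8 of the 15 genes fell (53.3%, beside 35.3% of all tested genes), 2 rose and 5 were not called. The median log2 fold change of the 15 was -0.39 (-0.37 relative to all tested genes). Under library totals 0 of the 15 fell and 4 rose, where 10.8% of all tested genes fell and 50.1% rose. Counts and medians of the subunits thus lay close together, and their difference was not tested.

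4 genes lay nearest to no change. mrpl20 (subunit L58) had 8.34, 8.97 and 10.9 CPM with thiamine, against 10.1, 9.28 and 9.49 CPM without. rsm19 (subunit S19) had 15.2, 16.0 and 16.3 CPM with thiamine, against 16.7, 16.1 and 15.7 CPM without. mrpl8 (subunit L17, at the tunnel exit in bacteria) had 72.4, 72.3 and 59.1 CPM with thiamine, against 64.4, 66.5 and 61.7 CPM without. mrps9 (subunit S9) had 66.1, 63.9 and 71.0 CPM with thiamine, against 59.8, 65.6 and 63.0 CPM without. In each of them the groups overlapped, with log2 fold changes of -0.03 ± 0.13 for mrpl20, -0.03 ± 0.08 for rsm19, 0.08 ± 0.10 for mrpl8 and 0.09 ± 0.08 for mrps9. Without the third thiamine library, however, mrpl8 was called (log2 fold change 0.16, edgeR adjusted p = 0.027).

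The remaining 11 calls were all lower. rsm24, mrpl51, rsm18, mrpl35, rsm27, mrpl17, mrps18, rsm10, mrpl32, mrpl6 and rsm25 had log2 fold changes between -0.55 (rsm24, subunit S35) and -0.24 (rsm25, subunit S23). All of these turned positive under library totals, between 0.02 (rsm24) and 0.34 (rsm25). The calls of mrpl35, rsm10, mrpl32 and rsm25 were each lost in at least 1 fit with a library left out. Of the genes not called, mrpl28 (subunit L40) had an edgeR adjusted p of 0.055 with a log2 fold change of 0.20 ± 0.08, and its thiamine values of 33.6, 31.6 and 32.2 CPM all exceeded the 30.4, 27.6 and 26.6 CPM without thiamine.

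The make-up of the group shows the unequal changes without any scaling between libraries. As a share of the counts of the 45 genes, mrpl9 took 7.88%, 8.66% and 8.33% with thiamine, against 4.86%, 4.78% and 5.29% without. mrpl38 took 2.74%, 2.80% and 2.52% with thiamine, against 5.29%, 5.05% and 5.07% without. These shares say how the genes changed relative to each other and not that any of them kept its level. In all, 12 of the genes had a higher share in every thiamine library and 17 a lower one. Shares were not counted in this way for other genes, so these counts have no background. On the CPM scale, the groups did not overlap in 75.5% of all tested genes.

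Members of bacterial descent (subunits numbered up to L36 or S21) and mitochondria-specific members were then set side by side. Over all tested genes, 35.3% fell and 34.5% rose. Of the 29 genes of bacterial descent, 12 fell (41.4%) and 3 rose, with a median log2 fold change of -0.24. Of the 15 mitochondria-specific genes, 10 fell (66.7%) and 2 rose, with a median of -0.49. All 4 mitochondria-specific genes of the small subunit (rsm23, rsm24, rsm25 and rsm27) fell, beside 4 of the 11 small-subunit genes of bacterial descent. Of the 18 genes with introns 11 fell (61.1%) and 2 rose (median -0.47), and of the 26 without introns 11 fell (42.3%) and 3 rose (median -0.22). By chromosome, 13 of the 20 genes on chromosome II fell and 1 rose, 7 of the 14 on chromosome I fell and 3 rose, and 2 of the 10 on chromosome III fell and 1 rose. Over all tested genes of these chromosomes, 36.4% (II), 34.6% (I) and 35.1% (III) fell. None of these differences was tested, and the groups share genes. They were formed after earlier results of these data were known.

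**Figure D3:**
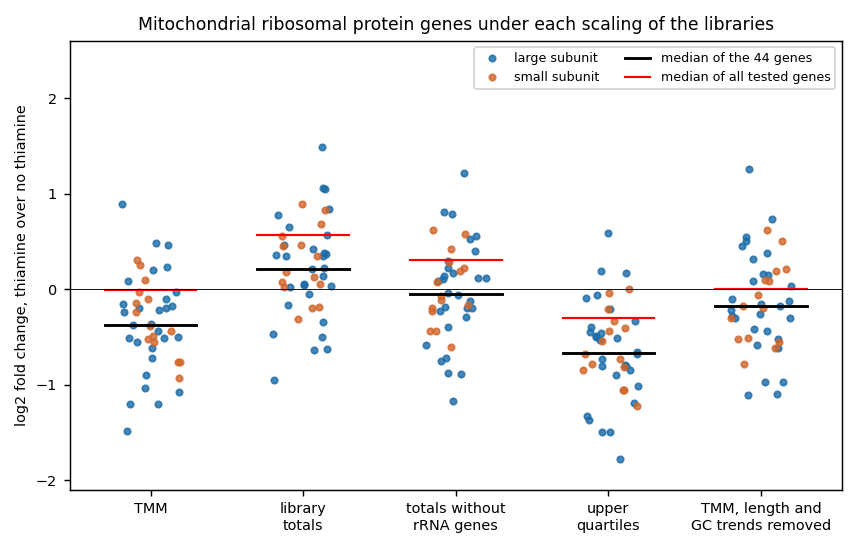
Log2 fold change (thiamine over no thiamine, vertical axis) of the 44 mitoribosomal protein genes under 4 scalings of the libraries and after removal of length and GC trends, with black bars for their median and red bars for the median of all tested genes. The black bar moves between 0.21 (library totals) and -0.67 (upper quartiles), and lies below the red bar in every column.

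Levels differed more among the genes than between the groups. Per kb of transcript, the median of the 45 genes without thiamine was 28.9 CPM per kb, beside 9.63 CPM per kb over all counted genes. The 3 genes with the highest level were mrpl38, then mrpl8 with 68.2 CPM per kb with thiamine and 64.5 without, and mrpl19 with 43.4 with thiamine and 61.6 without. The lowest 3 were mrpl4 (subunit L29) with 0.40 CPM per kb with thiamine and 0.45 without, mrpl22 (subunit L22) with 0.25 with thiamine and 0.41 without, and rsm1 with 0.04 with thiamine and 0.08 without. mrpl4 had 15, 11 and 5 counts with thiamine, against 11, 5 and 10 without, and all of its length is shared with an antisense RNA. mrpl22 had 13, 16 and 10 counts with thiamine, against 14, 23 and 11 without, and mrps17 (subunit S17) had 7, 12 and 16 with thiamine, against 13, 13 and 23 without. None of these 3 genes passed the test, although mrps17 was called under upper quartiles (-1.23, edgeR adjusted p = 0.030), and their standard errors on the log2 scale were 0.54, 0.40 and 0.44, beside a median of 0.11 over the 44. rsm1 had 3, 8 and 6 counts with thiamine, against 4, 13 and 6 without, and was not tested.

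Genes in fission yeast lie close together, and 10 of the 45 genes have at least 50% of their length covered by another counted gene. Those are mrpl24, mrps17, mrpl22, rsm27, rsm10, mrpl12, mrpl4, mrps28, mrpl9 and rsm1. Whether counting used the strand is not given in the sources used here, so reads of these genes and of their partners may not be separated. Whether reads of shared stretches were left out is not given either, so levels of overlapped genes may be too low or too high. Partners did not move as one: rib4, which overlaps mrps17, was lower (log2 fold change -1.68), SPCC1739.01, which overlaps mrpl22, was higher (1.74), and cog8, which overlaps mrps28 (subunit S15), was higher (1.05). mrps28 itself had 6.76, 6.37 and 5.82 CPM with thiamine, against 6.02, 8.18 and 6.19 CPM without, and was not called. Of the 23 genes with under 10% of their length shared, 13 fell (56.5%) and 2 rose (median -0.51). Of the 9 tested genes with at least 50% shared, 3 fell (33.3%) and 1 rose (median -0.39), where 35.3% of all tested genes fell. None of the 45 genes has a near-identical copy elsewhere in the genome (at least 95% identity over 100 bases).

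**Figure D4:**
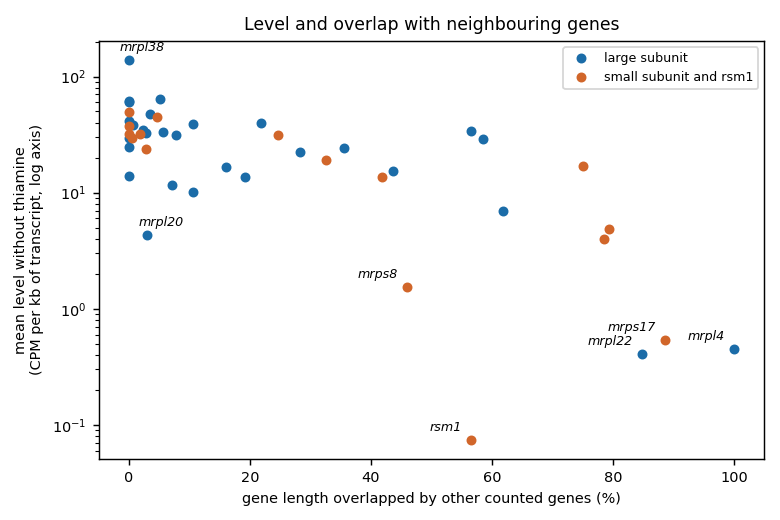
Mean level without thiamine (CPM per kb of transcript, log axis) of the 45 genes against the share of the gene's length that other counted genes cover, blue for the large subunit and orange for the small subunit and rsm1. mrpl4, mrpl22 and mrps17, at 0.45, 0.41 and 0.53 CPM per kb, stand at 84.8% to 100% overlap, far below mrpl38 at 139 CPM per kb with none.

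20 of the genes have a divergent neighbour whose start lies within 1000 bp, and the pair of mrpl28 and mrps12 counts for each of them. In 7 of the 20 pairs both genes were called, 3 times in the same direction and 4 times in opposite directions. For the 9 genes that fell, the neighbour rose in 4 pairs, fell in 1, was not called in 2 and was not tested in 2. For the 3 that rose, it rose in 2 and was not called in 1. Over all tested genes, 69.8% were called, with 34.5% higher and 35.3% lower. Divergent pairs of other genes were not counted, so these pair counts have no background. pof12, an F-box protein gene divergent from mrpl44, was higher with thiamine (log2 fold change 0.58, edgeR adjusted p = 5.6e-04), and rrs1, a ribosome biogenesis gene divergent from rsm23, was also higher (0.71, edgeR adjusted p = 5.6e-04). mrpl28 and mrps12 are divergent from each other, with 718 bp between them, and both had positive values, which turned to -0.09 and -0.04 under upper quartiles.

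The list was finally set beside other genes of the same organelle. The annotation holds 34 further mitochondrial ribosomal genes under other names, of which 31 were tested. Of these, 13 fell (41.9%, beside 35.3% of all tested genes), 6 rose and the median log2 fold change was -0.34. mrp11 (subunit L10) averaged 18.1 ± 2.57 CPM with thiamine and 35.8 ± 1.70 CPM without (SD, n = 3 each; log2 fold change -0.98 ± 0.11 (SE), edgeR adjusted p = 8.0e-05). fyv4 (subunit S41), with 87.4% of its length shared, was also lower (log2 fold change -1.40 ± 0.15, edgeR adjusted p = 5.4e-05). mug178, annotated as subunit L51-b, rose more than any gene of the 44, with 43.0, 41.5 and 46.6 CPM with thiamine, against 17.0, 18.1 and 18.7 CPM without (log2 fold change 1.28 ± 0.08, edgeR adjusted p = 3.3e-06). SPCC777.17c (subunit L9) rose as well, by 0.64 ± 0.18 on the log2 scale (edgeR adjusted p = 0.013), as did SPBC3H7.04, a further subunit chosen after its values were seen, by 0.61 ± 0.08 (edgeR adjusted p = 1.5e-04). Under library totals 1 of the 31 fell and 11 rose, where 10.8% of all tested genes fell and 50.1% rose.

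Of 36 tested translation factors and tRNA ligases of mitochondria, 19 fell (52.8%, beside 35.3% of all tested genes). A further 8 rose (22.2%, beside 34.5%), and the median was -0.33. msw1, the tryptophan-tRNA ligase, had a log2 fold change of -1.29 ± 0.11 (edgeR adjusted p = 1.3e-05), with 77.3% of its length shared. hrs1, the histidine-tRNA ligase, had one of -1.33 ± 0.43 (edgeR adjusted p = 0.021) from 6 to 28 counts a library, with all of its length shared. oxa102, an insertase of the mitochondrial inner membrane, rose (1.02 ± 0.08, edgeR adjusted p = 1.1e-05). The pentatricopeptide repeat proteins, which bind mitochondrial RNA, and the mitochondrial RNA polymerase genes form a list of 13, of which 7 rose and 2 fell (median 0.31), where 34.5% of all tested genes rose and 35.3% fell. With length and GC trends removed 6 rose and 2 fell (median -0.02), where 34.0% of all tested genes rose and 33.6% fell. Under upper quartiles 5 of the 13 rose and 6 fell (median 0.01), where 25.2% of all tested genes rose and 47.5% fell. Under library totals 9 of the 13 rose and 0 fell (median 0.90), where 50.1% of all tested genes rose and 10.8% fell. ppr5 had 513, 519 and 519 CPM with thiamine and averaged 82.0 ± 3.64 CPM without (log2 fold change 2.66 ± 0.09, edgeR adjusted p = 2.2e-07). ppr4, which regulates translation of cox1 and counts in both lists, rose as well (1.54 ± 0.10, edgeR adjusted p = 3.2e-06), whereas ppr2 fell (-1.01 ± 0.18, edgeR adjusted p = 0.0011) and ppr6 fell (-0.41 ± 0.15, edgeR adjusted p = 0.033).

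Transcripts of the mitochondrial genome varied widely between libraries. With all libraries, edgeR called 0 of the 7 tested genes, with 1 at an unadjusted p under 0.05 (DESeq2 called 1), and a median log2 fold change of 1.13. With 1 library left out, the median lay between 0.17 (without thiamine replicate 1) and 2.05 (without the third library lacking thiamine). Those fits called 0 to 3 genes, all higher, and the 3 came from the fit with the 2.05. Library totals called 6 of the 7 as higher, where 50.1% of all tested genes were higher. The summed level of the mitochondrial genome was 49.9, 19.2 and 11.6 CPM with thiamine, against 7.16, 6.196 and 21.3 CPM without, so that the groups overlapped. var1, which encodes the ribosomal protein S3 inside the organelle, had 9, 2 and 1 counts with thiamine, against 0, 0 and 1 without, and was not tested. The mitochondrial ribosomal RNAs rnl and rns were not called (edgeR adjusted p = 0.701 and 0.121), in libraries made by selecting polyadenylated RNA.

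Among 52 genes with names of respiratory genes, here called respiratory genes, 27 fell (51.9%) and 3 rose (5.8%), with a median of -0.37. Of all tested genes, 35.3% fell and 34.5% rose. The names also take in some genes annotated with other functions. cox24, annotated as a mitochondrial mRNA processing protein (-1.61 ± 0.19, edgeR adjusted p = 8.3e-05), and atp11, a chaperone of ATP synthase (-1.43 ± 0.14, edgeR adjusted p = 2.5e-05), were lower. cyc1, cytochrome c (0.98 ± 0.13, edgeR adjusted p = 1.6e-04), and atp25 (0.46 ± 0.09, edgeR adjusted p = 0.0018) were higher. atp25 is annotated as a mitochondrial polynucleotide adenylyltransferase and has 55.4% of its length shared. Of 141 cytosolic ribosomal protein genes, 117 fell (83.0%) and 2 rose (1.4%), with a median of -0.85. rpp103 (-1.78 ± 0.18, edgeR adjusted p = 4.0e-05) and rpl3802 (-1.58 ± 0.16, edgeR adjusted p = 4.0e-05) led the falls, and rps1401 (0.80 ± 0.24, edgeR adjusted p = 0.015) and rpl3002 (0.71 ± 0.09, edgeR adjusted p = 1.4e-04) were the 2 that rose. The value of rps1401 came from 27 to 88 counts a library, with all of its length shared. With length and GC trends removed, 58 cytosolic ribosomal protein genes fell and 13 rose (median -0.14), and 18 respiratory genes fell and 9 rose (median -0.11). In that fit 33.6% of all tested genes fell and 34.0% rose. No difference between the lists was tested.

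**Figure D5:**
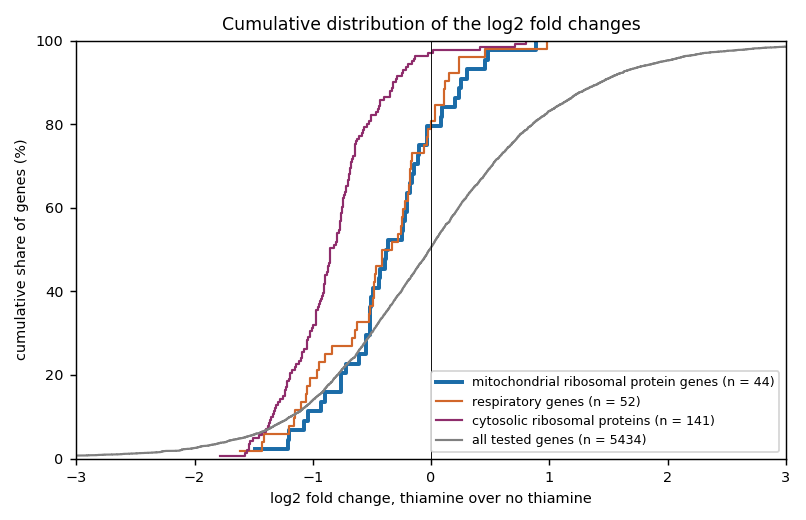
Cumulative share of genes (%, vertical axis) at or below each log2 fold change (thiamine over no thiamine, TMM scaling, horizontal axis, outer tails not shown) for 44 mitoribosomal protein genes (blue), 52 respiratory genes (orange), 141 cytosolic ribosomal protein genes (purple) and all 5434 tested genes (grey). The blue and orange lines cross 50% near -0.37, between the purple line at -0.85 and the grey line at -0.01, and library totals move the blue and orange medians above 0.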

How the data were processed

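RNA was measured by sequencing 6 nup211-so cultures, 3 with thiamine and 3 without, which the labels call biological replicates. The authors deposited whole-number counts per gene, with no normalization, made with a stranded mRNA kit. Their processing notes name STAR and DESeq2; versions, build and strand setting are not given in the sources used here. The deposited annotation also gives starts, ends, strands and transcript lengths (other units: bp); the deposited table of the authors' comparison (fold changes, p-values) was not used.

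The main test was edgeR 4.0.16's quasi-likelihood test (R 4.3.3; robust, TMM, default filter, 5434 of 6291 genes kept), and p-values were adjusted over all tested genes by Benjamini and Hochberg. Levels are TMM-scaled CPM. Alternatives were DESeq2 1.42.0, other scalings, no filter, a replicate block, length and GC correction, stricter thresholds and each library left out. On simulated counts edgeR recovered 199 of 200 changed genes, with 2 false calls among 5437 genes. The simulation had as many rises as falls, a dispersion of 0.01 and the same ribosomal RNA share in every library. It therefore cannot tell which scaling fits the real libraries. Promoters and the search for copies used the RefSeq annotation of ASM294v3, which held 6239 of the counted genes. Named genes were called members averaging 3 or more on the log2 CPM scale, with groups that did not overlap (up to 8 in each direction by fold change), the 4 nearest 0, the 3 highest and 3 lowest per kb, those untested or at least 50% overlapped, the 2 largest changes each way in each comparison list, and checks. The members and lists were chosen with earlier results of these data known.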

Additional observations from a re-analysis of the deposited data

How the results depend on the processing

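Calls depended on how the libraries were scaled. Over the 44 genes, library totals gave 17 calls, 12 higher and 5 lower (median log2 fold change 0.21; large subunit 8 higher and 5 lower, small subunit 4 higher and 0 lower; 588 of all tested genes lower, their median 0.57). Totals without ribosomal RNA genes gave 10 higher and 8 lower (median -0.051; large subunit 6 and 6, small subunit 4 and 2; 1193 of all tested genes lower, median 0.31). Upper quartiles gave 1 higher (large subunit 1, small subunit 0), with a median of -0.67 and -0.31 over all tested genes. With length and GC trends removed, 8 were higher (large subunit 6), 5 of the small subunit were lower, the median was -0.18, and relative to all tested genes it was -0.18 for the list and for each subunit. In that fit 34.0% of all tested genes were higher and 33.6% lower. Applied to edgeR's p-values, the study's thresholds left 1 call, 0 higher and 1 lower (large subunit 0 and 1, small subunit 0 and 0). Of all tested genes they left 531, 364 higher and 167 lower. The study itself used DESeq2. In the DESeq2 fit made here, mrpl44, mrpl38, mrpl3, mrpl7 and mrpl24 all passed these thresholds. Their DESeq2 log2 fold changes were -1.46, -1.18, -1.18, -1.05 and -1.02 (Wald test, adjusted p = 8.3e-10, 4.0e-24, 4.6e-19, 6.2e-25 and 5.1e-13). How many of all genes passed these thresholds in the DESeq2 fit was not counted, so these passes have no background. The 531 genes above are those of edgeR. Keeping genes with under 10% overlap left 15 calls, 2 higher and 13 lower.

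Of the 44 values, 24 turned positive under library totals, 12 under totals without ribosomal RNA genes and 8 with length and GC trends removed, and 5 turned negative under upper quartiles. Among the genes called in either fit, these were, under library totals, mrpl20 (0.57), rsm19 (0.55), mrpl40 (0.46), rsm25 (0.34), mrpl6 (0.22), mrpl32 (0.21), rsm10 (0.17), mrpl17 (0.14), mrps18 (0.13), rsm27 (0.073), rsm18 (0.056), mrpl1 (0.049), mrpl19 (0.048), mrpl35 (0.035), mrpl51 (0.019) and rsm24 (0.018), under totals without ribosomal RNA genes rsm19 (0.29) and rsm25 (0.079), and under upper quartiles mrps12 (-0.043) and mrps9 (-0.20); none of the 8 with length and GC trends removed was called in either fit. The cause was not tested.

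Same-numbered libraries did not deviate together (correlations -0.005, 0.086 and -0.028), so the numbers were not treated as pairs. The replicate block gave 6 genes higher and 22 lower, and with length and GC trends removed 8 higher (large subunit 6), 5 of the small subunit lower, a median of -0.18 and a relative median of -0.18 for the list and for each subunit. DESeq2 gave 6 higher and 21 lower.

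With 1 library left out at a time, 22 to 29 genes were called, 4 to 7 higher and 18 to 22 lower (median -0.41 to -0.31), with 3 to 5 higher in the large and 1 to 2 in the small subunit. Without thiamine replicate 3, 7 were higher and 22 lower, 5 of the higher ones in the large subunit. A single small-subunit gene rose without thiamine replicate 1 or 2, or without any 1 of the libraries without thiamine. mrpl4, mrpl22 and mrps17 had 5 to 23 counts a library and standard errors of 0.40 to 0.54 on the log2 scale, and at this depth mrps17 was called under upper quartiles (-1.23, edgeR adjusted p = 0.030).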
